A study of Homo sapiens with 9 samples.

Results

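The UGT2 genes on chromosome 4q13 are 9 of the 20037 protein-coding genes for which coverage by H3K9me3 domains was measured in hTERT RPE-1 cells, a line derived from human retinal pigment epithelium and made immortal by telomerase. They were taken as a gene family, UGT2B17, UGT2B15, UGT2B10, UGT2A3, UGT2B7, UGT2B11, UGT2B28, UGT2B4 and UGT2A1 in order along the chromosome, and were picked with their covered percents already known. Those percents are therefore a description and carry no test. The study ran Cut&Run for the heterochromatin mark H3K9me3 in stable clonal lines expressing either a fusion of mCherry with lamin B1 (LmnB1), a protein of the nuclear lamina, or mCherry alone. All lines received doxycycline at 0.05 ug/mL for 24 hours. Each clone gave 2 biological replicates. The clones LmnB1_16 and LmnB1_6 carried the fusion and mCherry_3 and mCherry_4 the control, so each construct had 4 libraries from 2 clones. Nothing in the labels names the promoter that drives either construct. The input came from wild-type cells without doxycycline.

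UDP-glucuronosyltransferases sit in the membrane of the endoplasmic reticulum and join glucuronic acid, taken from UDP-glucuronic acid, to steroids, bile acids, drugs and other lipid-soluble compounds, which can then be excreted. The UGT2 genes arose by tandem duplication and are known mainly for expression in liver, gut, kidney and steroid-responsive tissues, and UGT2A1 for the olfactory epithelium. H3K9me3 is a repressive mark that often spans whole clusters of duplicated genes in cells that do not use them. Expression was not measured in these libraries, so neither transcription of the genes nor the identity of the cells could be checked through RNA.

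The 9 genes lie within 1.12 Mb on chromosome 4 from 68537173 to 69653247 (GRCh38). Domains in the deposited lists covered 85.0% of this stretch in LmnB1_6 replicate 1 and 50.7% in LmnB1_6 replicate 2. They covered 1.79% in LmnB1_16 replicate 1, 0.538% in LmnB1_16 replicate 2 and 0 in all 4 mCherry libraries. Long domains over the cluster were thus listed for 1 of the 4 clones, in both of its replicates. The genes were picked with these values known, so this is a description. A stretch absent from a list may still hold reads just under the authors' threshold, since listing required a log2 enrichment of about 0.6.

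**Figure D1:**
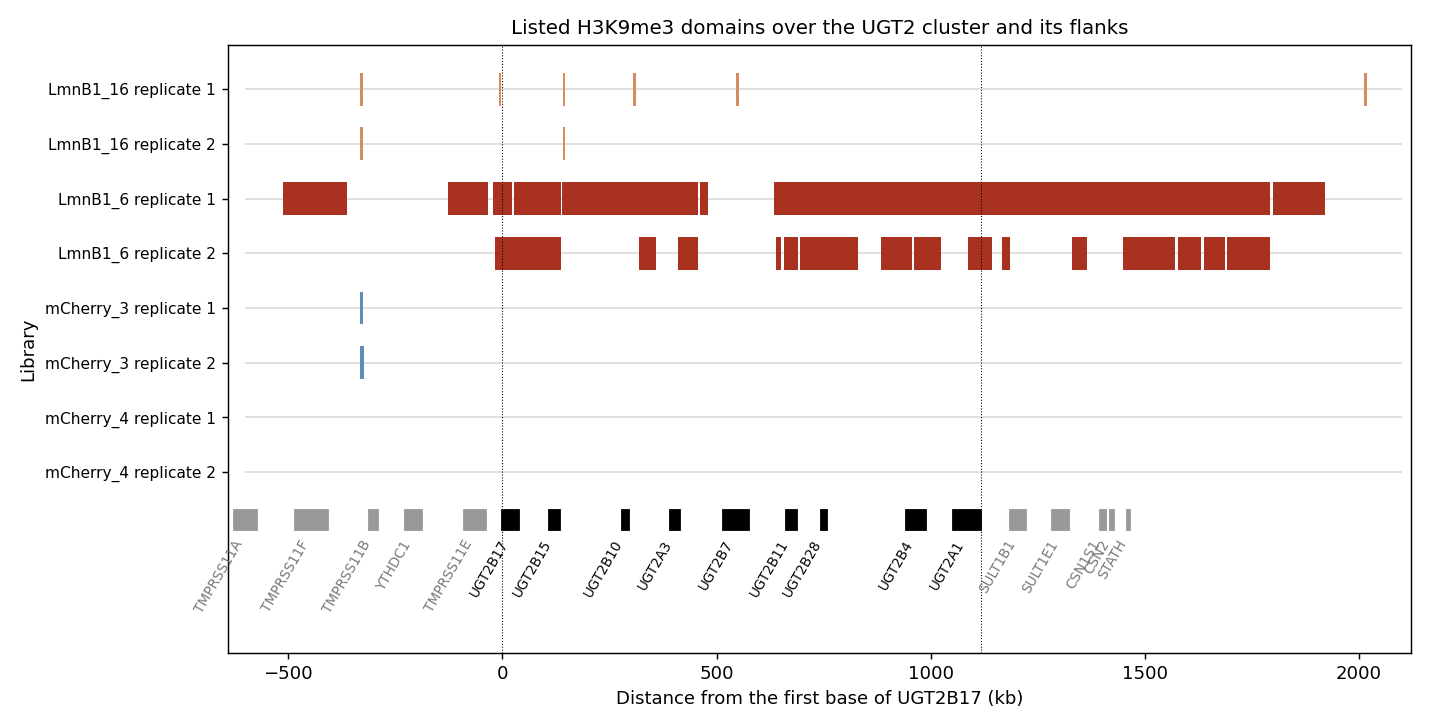
Domains listed in each of the 8 libraries (coloured bars, rows) by distance in kb from the first base of UGT2B17 (x axis), with the UGT2 genes in black, the 5 nearest protein-coding genes on each side in grey, and dotted lines at both ends of the cluster. Both LmnB1_6 libraries carry long domains with a shared gap over UGT2B7, LmnB1_16 carries a few domains of 5 to 8 kb, and the mCherry libraries carry none between the dotted lines.

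Across libraries the depth relative to input ran from 0.421 in mCherry_4 replicate 1 to 1.01 in LmnB1_16 replicate 2, and H3K9me3 reads inside domains ran from 2855378 to 10321442. All 4 LmnB1 libraries were deeper than all 4 mCherry libraries, so depth and construct cannot be told apart. The deepest library, LmnB1_16 replicate 2, listed 6 kb at the cluster, and LmnB1_6 replicate 2, at a depth of 0.902, listed 566 kb. LmnB1_6 replicate 2 covered 357 Mb of the genome in all, and mCherry_3 replicates 1 and 2 covered 529 and 528 Mb. The part of depth in the coverage of the cluster was not tested. With every list shortened by score to the same covered length, 55.0% and 44.0% of the cluster remained covered in LmnB1_6 replicates 1 and 2, against at most 0.538% in the other 6 libraries. In the highest-scoring 50% of each list it was 83.4% and 18.4% for LmnB1_6, and again at most 0.538% for the others.

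The genes at the proximal end of the cluster were covered in both LmnB1_6 replicates. UGT2B17 (68537173 to 68576322), which conjugates testosterone and other androgens, was covered over 89.8% of its body in LmnB1_6 replicate 1 and 100% in replicate 2. Its close paralog UGT2B15 (68646597 to 68670652), which also conjugates androgens, was covered over 100% in both replicates. For both genes the covered percent was 0 with mCherry and in clone LmnB1_16. The shortfall of UGT2B17 in replicate 1 came from a gap of 4 kb between successive domains, the smallest gap found in any list.

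UGT2B10 and UGT2A3 separated the 2 replicates. UGT2B10 (68815994 to 68832023), an enzyme that attaches glucuronic acid to amines such as nicotine, was covered over 100% in LmnB1_6 replicate 1 and 0 in replicate 2. UGT2A3 (68928463 to 68951804), which acts on bile acids, was covered over 100% in replicate 1 and 20.6% in replicate 2. Neither gene was covered in any of the other 6 libraries. The domain listed over UGT2A3 in replicate 2, from 68947001 to 68994000, lay over the end of the gene where transcription begins.

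UGT2B7 (69051375 to 69112987), the enzyme known for conjugating morphine and many other drugs, was the one gene of the 9 at 0 in both LmnB1_6 replicates. In replicate 1 its neighbours UGT2A3 and UGT2B11 were both covered over 100%. In replicate 2 UGT2B11 was covered over 100% and UGT2A3 over 20.6%, and UGT2B10 was at 0 as well. The covered percent of UGT2B7 was 12.98 in LmnB1_16 replicate 1 and 0 in LmnB1_16 replicate 2 and in the 4 mCherry libraries. UGT2B7 lay inside a gap between listed domains that ran from 69016001 to 69171000 (155 kb) in LmnB1_6 replicate 1 and from 68994001 to 69176000 (182 kb) in replicate 2. In both replicates the gap also held the pseudogenes UGT2B27P and UGT2B26P. The domain of 8 kb in LmnB1_16 replicate 1 lay within the annotated interval of UGT2B7, 6.47 kb before the start used for its promoter. It held 8.5 input reads per kb, with a median of 8.73 over all domains of that list. Input reads over the rest of the gap were not analysed here.

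Distal to the gap, coverage resumed in both LmnB1_6 replicates. UGT2B11 (69199951 to 69224984) and UGT2B28 (69280475 to 69295050), the latter a steroid-conjugating enzyme, were each covered over 100% in both replicates. UGT2B4 (69480165 to 69526014), which acts on bile acids, was covered over 100% in replicate 1 and 91.3% in replicate 2. UGT2A1 (69588417 to 69653247), the olfactory enzyme, was covered over 100% in replicate 1 and 46.7% in replicate 2. UGT2A2, which lies inside the UGT2A1 interval and is not counted among the 9 genes, had 100% and 32.5%. All 5 of these genes were at 0 in the other 6 libraries.

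**Figure D2:**
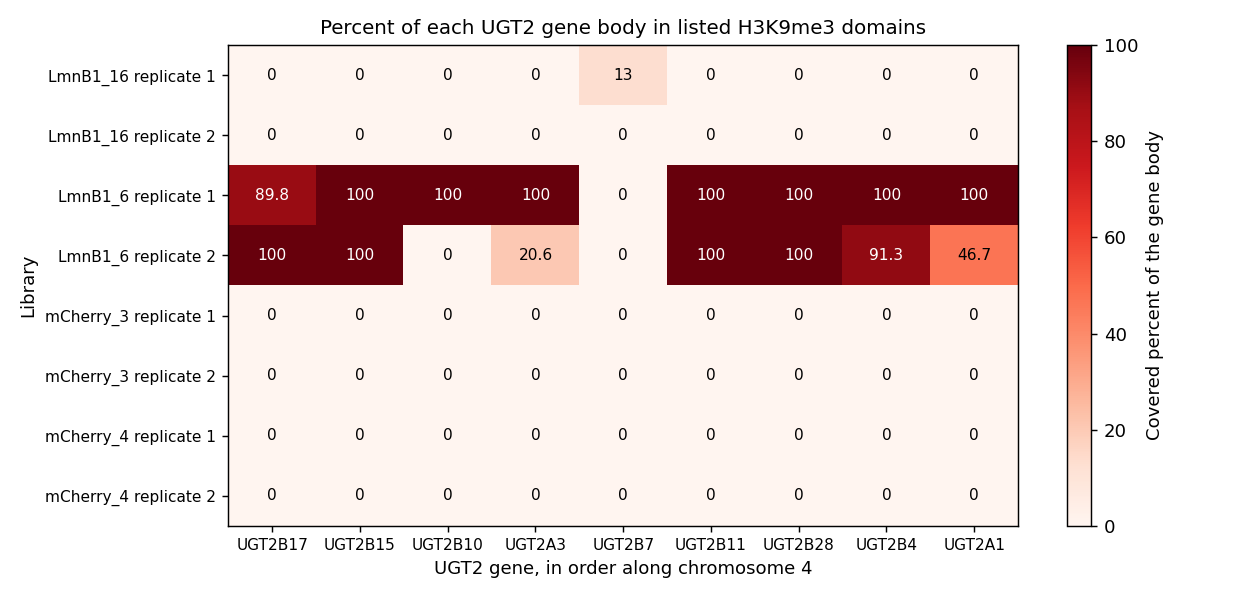
Percent of each UGT2 gene body inside listed H3K9me3 domains (colour and printed value, 0 to 100) for the 9 genes in chromosomal order (x axis) in each of the 8 libraries (rows). Values above 20 appear in the 2 LmnB1_6 rows alone, and the UGT2B7 column is at 0 in both of them.

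In LmnB1_6 replicate 1, 7 of the 9 genes were covered over at least 90% of their length, where 4.23% of all protein-coding genes were. In LmnB1_6 replicate 2 it was 5 of 9, where 2.22% of all were. The median over the 9 genes was 100% and 91.3% in those replicates, and the median over all protein-coding genes was 0 in every library. In the remaining libraries 0 of 9 genes reached 90%, where 4.95% and 4.21% of all genes did in LmnB1_16, 4.11% and 4.19% in mCherry_3, and 2.45% and 1.60% in mCherry_4. A total of 62 protein-coding genes (0.309%) were covered over at least 50% in both LmnB1_6 libraries and at most 10% in the other 6, and 5 of the 9 UGT2 genes were among them, UGT2B17, UGT2B15, UGT2B11, UGT2B28 and UGT2B4. Nothing is read from these counts, because the genes were picked on the same values.

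Clone LmnB1_6 alone held long domains over the cluster, so the difference between constructs came with a wide spread. The mean covered percent of the 1.12 Mb stretch was 34.5 ± 41.0 with LmnB1 and 0 ± 0 with mCherry (SD, n = 4 each). All 4 LmnB1 libraries lay above the mCherry zeros, those of LmnB1_16 by 1.79 and 0.538 percentage points, and over 8 of the 9 gene bodies LmnB1_16 was at 0 like mCherry. Leaving out both LmnB1_6 libraries, a choice made after seeing the data, brought the difference from 34.5 to 1.16 percentage points. Leaving out LmnB1_6 replicate 1 alone brought it to 17.7, and the differences of UGT2A1, UGT2A3 and UGT2B10 from 36.7, 30.1 and 25.0 to 15.6, 6.86 and 0. In a limma fit over the 2304 genes whose coverage averaged 5% or more (clone as a random block, Benjamini-Hochberg adjustment, threshold 0.05), 7 genes passed (0.304%), 5 of them higher with LmnB1 (0.217%) and 2 lower (0.0868%). Of the 9 UGT2 genes, 8 entered the fit, through their coverage in LmnB1_6 alone, and UGT2B7 did not. The 7 genes that passed include 0 of the 8, and 0 of 8 had an unadjusted p below 0.05, where 3.65% of all genes tested did. Nothing is read from these counts, since the fit used the values on which the genes were picked.

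The replicates of LmnB1_6 shared their borders only in part. Replicate 1 had 5 domains overlapping the cluster, with lengths from 18 to 1158 kb, and replicate 2 had 9, from 11 to 153 kb. Of the bases listed within the cluster in replicate 2, 99.3% were also listed in replicate 1, while 59.2% of the bases in replicate 1 were listed in replicate 2. The first domain began 21.2 kb before UGT2B17 in replicate 1 and 17.2 kb before it in replicate 2. Among 10 borders in replicate 1 and 18 in replicate 2, 2 fell on the same base. They were the domain ends at 68673000, just past UGT2B15, and at 68994000, past UGT2A3. In replicate 1 the next domains began close after these ends, at 68677001 and 68998001. In replicate 2 the next ones began farther on, at 68856001 and 69176001. Starts lie on steps of 1000 bp, so positions are known to no better than that. Gene bodies were covered over 79.1% in replicate 1 and 57.1% in replicate 2, and the sequence between the genes over 87.4% and 48.2%, so neither class was the more covered in both replicates.

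By log2 enrichment, the domains over the cluster lay mostly above the list median in LmnB1_6 replicate 1 and mostly below it in replicate 2. In LmnB1_6 replicate 1 the log2 enrichment given by the authors spanned 0.66 to 1.00 across the 5 domains, against a median of 0.89 for all domains of that list. All but the shortest domain, of 18 kb, lay above that median. The longest of them, from 69171001 to 70329000, held 18324 H3K9me3 reads and 9863 input reads at a log2 enrichment of 0.98, and ranked at percentile 99.5 of the list by length. In LmnB1_6 replicate 2 the log2 values ran from 0.61 to 0.78, with a list median of 0.70, and 6 of the 9 domains lay below that median. Ranked by score within their lists, the domains ran from percentile 9.98 to 65.1 in replicate 1 and from 6.78 to 74.6 in replicate 2.

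Input reads, from the shared wild-type input, were counted over the whole of each domain overlapping the cluster. They entered the listing of domains through the enrichment over input, so they are not independent of the choice of genes. In LmnB1_6 replicate 1 those domains measured 1646 kb, of which 949 kb lay in the cluster. In replicate 2 they measured 610 kb, of which 566 kb lay in it. Pooled over these whole domains, reads of the shared input numbered 8.55 per kb for the list of LmnB1_6 replicate 1 and 8.33 per kb for that of replicate 2. The medians over single domains of the lists were 8.57 and 8.33. H3K9me3 reads, pooled in the same way, numbered 15.7 and 11.9 per kb, with list medians of 15.3 and 12.3. The UGT2 genes are near-identical copies in part, so reads from one copy can be placed on another, and the covered percent of a single gene is less certain than that of the cluster.

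**Figure D3:**
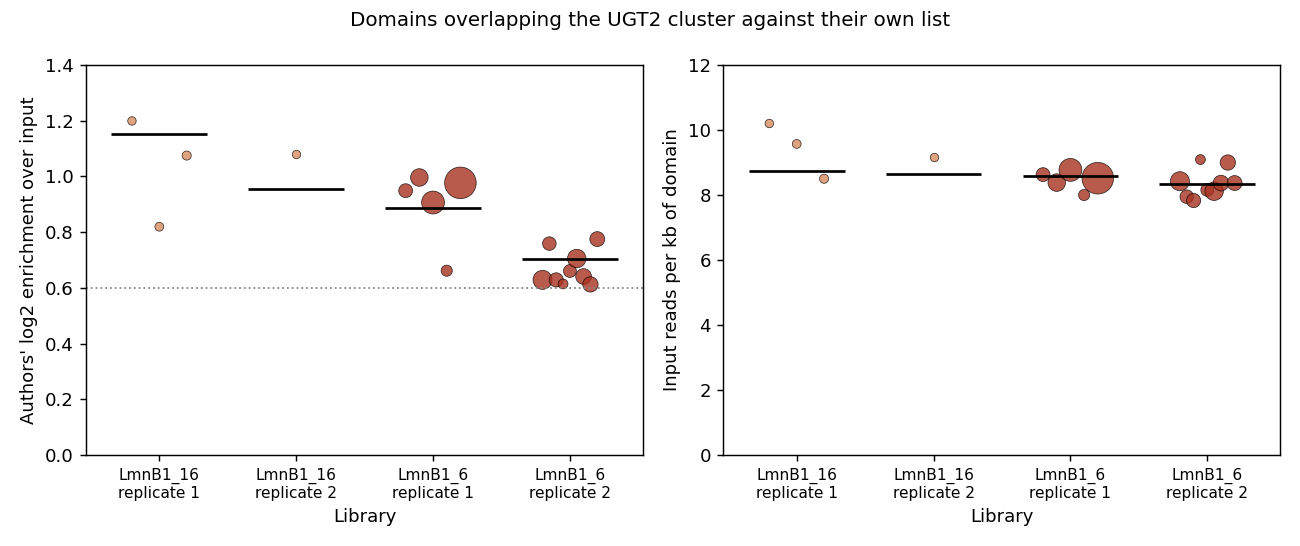
Authors' log2 enrichment over input (left y axis) and input reads per kb of domain (right y axis) for each domain overlapping the UGT2 cluster, in the 4 libraries that list any (x axis). A circle is 1 domain, its area grows with domain length, black lines are the medians of all domains in that list and the dotted line is the lowest enrichment listed, about 0.6, while the cluster domains lie on both sides of the medians for LmnB1_6.

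LmnB1_16 carried short domains in the same interval. Replicate 1 listed domains of 5, 7 and 8 kb within the cluster, at log2 enrichments of 1.20, 0.82 and 1.07, and replicate 2 listed 1 of 6 kb at 1.08. The domain that both replicates listed began at 68678001, 7.35 kb from the first transcribed base of UGT2B15 on its upstream side, and ended at 68683000 in replicate 1 and 68684000 in replicate 2. The same bases lay inside a 317 kb domain of LmnB1_6 replicate 1 and in no domain of LmnB1_6 replicate 2. The domain of 7 kb lay 10.98 kb beyond UGT2B10. The domain of 8 kb, from 69082001 to 69090000, lay within the UGT2B7 interval, 6.47 kb before the start used for its promoter. Just before the cluster, LmnB1_16 replicate 1 listed a domain of 5 kb from 68529001 to 68534000, 3.17 kb from UGT2B17. Those bases also lay inside a listed domain in both LmnB1_6 replicates. A further domain of 7 kb, 332 kb before the cluster, was listed from 68205001 in both LmnB1_16 libraries and in mCherry_3 replicate 1, and as 9 kb in mCherry_3 replicate 2.

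Coverage at the gene starts was read from promoter windows. RefSeq promoter sequences (GRCh38.p14) were at hand for 6 of the 9 genes, UGT2B15, UGT2B10, UGT2A3, UGT2B7, UGT2B11 and UGT2A1. UGT2B17, UGT2B28 and UGT2B4 were not matched. The window of 250 bases before to 50 after the start was inside a listed domain for 5 of 6 in LmnB1_6 replicate 1 and for 4 of 6 in replicate 2. The promoters of UGT2A3 and UGT2A1 were inside a domain in replicate 2 although 20.6% and 46.7% of their bodies were. UGT2B10 was the promoter covered in replicate 1 and not in replicate 2, and UGT2B7 was covered in neither. In the other 6 libraries 0 of 6 were covered.

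The 250 bases before the start of 4 UGT2B genes are shown because their promoters differed in coverage: in LmnB1_6, those of UGT2B15 and UGT2B11 were covered in both replicates, that of UGT2B10 in replicate 1 and that of UGT2B7 in neither. Each is written 5′ to 3′ on the strand of the gene, and the capitals mark the longest run that all 4 share. UGT2B15 is at chr4:68670653-68670902 on the minus strand, UGT2B10 at chr4:68815744-68815993 on the plus strand, UGT2B7 at chr4:69096224-69096473 on the plus strand and UGT2B11 at chr4:69214749-69214998 on the minus strand.
UGT2B15: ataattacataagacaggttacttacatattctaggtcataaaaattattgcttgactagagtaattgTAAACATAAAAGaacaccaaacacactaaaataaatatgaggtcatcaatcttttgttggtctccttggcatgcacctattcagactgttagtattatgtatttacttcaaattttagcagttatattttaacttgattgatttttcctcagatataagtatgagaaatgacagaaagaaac
UGT2B10: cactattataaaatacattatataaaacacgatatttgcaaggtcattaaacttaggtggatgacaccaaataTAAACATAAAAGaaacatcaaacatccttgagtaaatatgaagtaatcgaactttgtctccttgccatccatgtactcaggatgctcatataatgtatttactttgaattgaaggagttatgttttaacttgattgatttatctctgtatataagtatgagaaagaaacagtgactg
UGT2B7: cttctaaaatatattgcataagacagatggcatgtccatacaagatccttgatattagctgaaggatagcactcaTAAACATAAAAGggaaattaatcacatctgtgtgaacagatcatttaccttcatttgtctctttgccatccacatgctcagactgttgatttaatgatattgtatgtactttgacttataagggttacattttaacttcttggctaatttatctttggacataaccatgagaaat
UGT2B11: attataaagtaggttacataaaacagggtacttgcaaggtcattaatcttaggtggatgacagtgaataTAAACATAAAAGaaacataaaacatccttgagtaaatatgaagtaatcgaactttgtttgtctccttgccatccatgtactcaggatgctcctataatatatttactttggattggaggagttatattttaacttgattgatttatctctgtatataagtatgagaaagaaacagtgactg

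The shared run TAAACATAAAAG began 182, 177, 175 and 181 bases before the start in these 4 promoters, in the order printed. On either strand it occurred in 6 of 35116 RefSeq promoters of the same length (0.0171%), and it was chosen from these 4, so its rarity there is no finding. It contains the reverse complement of TGTTTA, the core bound by forkhead factors. That core matched on either strand in 5 of 6 UGT2 promoters and in 10.99% of all promoters. In the 4 promoters shown, the match is the one inside the shared run, so it came with the choice of that run. The count of 5 of 6 is therefore no finding either. A match is a run of letters and was not tested as a binding site.

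UGT2B10 and UGT2B11 were the most alike of the 4 shown, with 229 identical bases over 246 aligned (93.1%). UGT2B10 was uncovered and UGT2B11 covered in LmnB1_6 replicate 2, so promoters of close sequence differed there. UGT2B15 was identical to UGT2B10 and UGT2B11 over 80.2% and 80.5% of aligned bases. UGT2B7 was the least alike of the 4, identical to UGT2B15, UGT2B10 and UGT2B11 over 74.3%, 77.4% and 75.3% of 226, 226 and 231 aligned bases. With UGT2A1 fewer bases aligned, 175, and 74.3% of them were identical. As a share of all 250 bases, UGT2B7 was identical to UGT2B15, UGT2B10 and UGT2B11 over 67.2%, 70.0% and 69.6%. To UGT2A1 it was identical over 52.0%. All 4 sequences shown were rich in A and T: their GC content ran from 28.4% in UGT2B15 to 32.8% in UGT2B7, while the median over all promoters was 58.0%.

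Beyond the cluster the domains of LmnB1_6 continued on the distal side. The sulfotransferase genes SULT1B1 and SULT1E1, whose enzymes conjugate thyroid hormones and estrogens with sulfate, followed UGT2A1 and were covered over 100% in LmnB1_6 replicate 1. In replicate 2 they were covered over 2.11% and 0. Both were at 0 in the other 6 libraries. Of the 10 casein, saliva and enamel genes farther along the chromosome, CSN3, STATH, HTN1 and HTN3 were covered over 100% in both LmnB1_6 replicates. CSN1S1 and CSN2, which encode milk proteins, were covered over 100% in replicate 1 and 0 in replicate 2, and the mucin gene MUC7 over 50.5% and 0. AMTN, AMBN and ENAM were at 0 in all 8 libraries. In both replicates a domain ended at 70329000, 676 kb past UGT2A1. Replicate 1 listed a further domain from 70335001 to 70457000, while the next domain of replicate 2 began at 71849001.

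On the proximal side coverage was broken around YTHDC1, which encodes a nuclear reader of methylated RNA. YTHDC1 and TMPRSS11B were at 0 in all 8 libraries, and in LmnB1_6 replicate 1 they lay in a gap of 235 kb between domains, from 68174001 to 68409000. The serine protease genes TMPRSS11E and TMPRSS11F, on either side of that gap, were covered over 100% in LmnB1_6 replicate 1 and 0 in replicate 2. TMPRSS11A was at 0 in all 8. All 3 of TMPRSS11E, TMPRSS11F and TMPRSS11A were at 0 in the other 6 libraries.

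Genes of related function elsewhere in the genome differed in coverage. Of all 20037 protein-coding genes, 4140 were above 0 in at least 1 library, so most genes were at 0 in all 8. Among 12 other UDP-glycosyltransferases, 4 were at 0 in all 8 libraries, UGT1A1, UGT3A1, UGT3A2 and UGT8. The remaining 8 were UGT1A genes on chromosome 2, whose annotated intervals overlap and end on the same exons. All 8 were above 0 in LmnB1_16 replicate 1 and in LmnB1_6 replicate 1, where 17.4% and 13.1% of all genes were. The intervals of these 8 genes all contain that of UGT1A3, so bases listed there were counted again for each gene. The 8 genes are therefore not separate observations. UGT1A3, the shortest of these intervals at 44.3 kb, had the highest value, 56.5% in LmnB1_16 replicate 1. It had 11.3% in LmnB1_6 replicate 1 and 0 in the other 6. UGT1A8, which spans the longest interval, had 29.6% and 14.1% in the replicates of LmnB1_16 and 16.1% and 11.2% in those of LmnB1_6. For mCherry_3 it had 9.64% and 15.4%, and mCherry_4 was at 0. UGDH, UGP2 and SLC35D1, which make and transport UDP-glucuronic acid, and GUSB, the enzyme that removes glucuronic acid, were at 0 in all 8 libraries.

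Of 8 sulfotransferase genes, the 6 outside 4q13 were at 0 in all 8 libraries, as most protein-coding genes were. Of 10 transcription factors and nuclear receptors linked to UGT2 expression, 7 were at 0 throughout, among them HNF4A, FOXA1 and NR1I2. FOXA2, a forkhead factor of endoderm and liver, was fully covered in each of the LmnB1 libraries and at 0 with mCherry. A link between its coverage and that of the UGT2 genes was not tested. The highest value of PPARA and ESR1 in any library was 5.50%. ACTB, GAPDH, EEF1A1, VIM, KRT8, KRT18 and LMNB1, genes active in many cultured epithelial cells, were at 0 in all 8.

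The genes outside chromosome 4 with the profile nearest to the median of the 9 UGT2 genes were PRR5, LUZP2, ST8SIA4, OR9A4 and MGAM. Nearness is the mean absolute difference in covered percent over the 8 libraries, which was 0.406 percentage points for PRR5 on chromosome 22 and 0.987 for MGAM on chromosome 7. PRR5 was covered over 98.2% and 89.8% in LmnB1_6 replicates 1 and 2, and MGAM over 96.3% and 95.4%. LUZP2 on chromosome 11, ST8SIA4 on chromosome 5 and OR9A4 on chromosome 7 were covered over 100% in replicate 1 and 95.6%, 95.8% and 85.2% in replicate 2. All 5 were at 0 in the other 6 libraries.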

How the data were processed

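H3K9me3 Cut&Run domains were deposited as 1 list per library for 8 of the 9 samples; the input sample was not analysed here on its own. SICER, deepTools, DESeq2, DiffBind 3.0.15 and the builds GRCh38 and hg38 stand in the submitters' processing notes without roles, and no aligner is named there. Per domain the deposited lists hold the count of H3K9me3 reads and of input reads, a p-value and an adjusted p-value (not used), the authors' log2 enrichment, and a score that is 100 times that log2 value. Where several lists held the same interval (2546 intervals), its input count was always the same, so the control is shared.

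Counts exist only inside each list, so the covered percent of intervals was compared and no count model was run. Listed ends were extended by 1 base to meet the 1000 bp step. Gene positions came from RefSeq on GRCh38.p14. Depth relative to input is the inverse of the constant between the log2 value and the log2 count ratio. The test of covered percents over genes with a mean of at least 5 was limma 3.58.1 (R 4.3.3) with clone as a random block. The p-values rest on 2 clones per construct. Functions were tested on simulated data. Promoter identity is from global alignment without end gap penalty (Biopython 1.88). Named genes are the 9 members, genes inside the cluster, the 5 nearest on each side, lists of related genes, and the 5 nearest profiles outside chromosome 4. Some listed genes are not reported here. Members and lists were chosen with earlier results of these data known. Counts of the mCherry_3 replicates over 229 identical domains did not differ detectably beyond sampling noise (chi-square p = 0.197), while their lists differed, so both were kept and also averaged as 1 sample. Alternatives changed the lists, filter, block and libraries. Scripts ran under Python 3.11.15 with pandas 2.3.3, numpy 2.4.6, matplotlib 3.10.9 and scipy 1.17.1.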

Additional observations from a re-analysis of the deposited data

Results flagged for a closer look

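For the covered percents, 42 group values were looked at. In 8 of them, all within the 4 LmnB1 libraries, 1 library lay far from the other 3, with a gap above Dixon's critical value. This is a description: with the other 3 at 0 any value above 0 is marked whatever its size, so the usual chance share of about 1 in 20 does not hold here, and UGT2B10 and UGT2B7 were picked with these values known. LmnB1_6 replicate 1 stood at 100% for UGT2B10, TMPRSS11F, TMPRSS11E, SULT1B1, SULT1E1, CSN1S1 and CSN2, with LmnB1_6 replicate 2 at 2.11% for SULT1B1 and 0 for the other 6. LmnB1_16 replicate 1 stood at 12.98% for UGT2B7, with the other 3 at 0.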

How the results depend on the processing

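With 1 library left out, genes over the whole table called higher with LmnB1 by limma numbered from 5 to 57 (57 when LmnB1_6 replicate 2 was left out, 9 when either mCherry_3 replicate was) and genes lower from 2 to 8 (8 when mCherry_4 replicate 2 was left out, 4 when LmnB1_16 replicate 1 was). Without both LmnB1_6 libraries, a setting chosen after seeing the data, 113 were higher and 4 lower, 0 of the UGT2 genes reached the filter, the cluster differed by 1.16 points and the median UGT2 gene by 0. In the highest-scoring 50% of each list 1 gene was lower, and the first border in LmnB1_6 replicate 2 moved from -17.2 kb to 318.8 kb relative to the cluster start, with 1 of the 9 genes at 50% or more there. With domains under 10 kb apart joined, the last border in LmnB1_6 replicate 1 moved from 676 to 804 kb past the cluster. Deviations from the construct mean correlated from -0.22 to 0.26 for equal replicate numbers across constructs, and from -0.22 to 0.17 for unequal ones. These deviations also hold the difference between clones, so they cannot show whether the replicate number pairs the libraries. With the replicate number as a block 5 genes were higher and 2 lower, as without it. Averaging the mCherry_3 pair gave 5 and 2. Without LmnB1_6 replicate 1 the cluster differed by 17.7 points in place of 34.5, UGT2A1 by 15.6 in place of 36.7, UGT2A3 by 6.86 in place of 30.1 and UGT2B10 by 0 in place of 25.0. With lists of equal covered length UGT2A3 differed by 5.15 and UGT2B10 by 0. When lists kept their top 50% by score, the median UGT2 gene differed by 25.0 in place of 47.4. The cause of these shifts was not tested.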
